A study of Triticum aestivum with 54 samples.

Results

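Prx1 and Trx-M are a pair of redox genes that were followed here in leaf and young inflorescence of wheat and its relatives. Their members were chosen by name: every probe set whose symbol or synonym is Prx1 or Trx-M in the array's probe-to-gene table. This gave 2 of the 102 genes that the table names, on 5 of the 200 probe sets that carry such a name, while 61115 probe sets were measured in all. Trx-M was read by 1 probe set and Prx1, also called TaPrx1, by 4. The Prx1 probe set whose identifier ends in S1_a_at is called the shared Prx1 probe set below, since Affymetrix gives that ending to probe sets that match several transcripts of one gene, and its partner with the same stem, ending in S1_at, the unique Prx1 probe set. The 2 others are called the second and the third Prx1 probe set, by the number in their identifiers. The plots give the identifiers of those tested.

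Trx-M stands for an m-type thioredoxin, a small chloroplast protein that receives electrons from ferredoxin in the light and passes them to disulfides of target enzymes, which switches parts of carbon metabolism on. Peroxiredoxins remove hydrogen peroxide with a reactive cysteine and are among the proteins that chloroplast thioredoxins reduce. The symbol Prx has also been used for haem peroxidases of the plant secretory pathway, and the table gives Prx1 no product name, so which family it belongs to was not settled here.

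The study asked how total expression changed after 2 diploid genomes were joined in a tetraploid, with the Affymetrix GeneChip Wheat Genome Array. The synthetic tetraploid AT2 (genome SlSlAA) came from a cross of Ae. longissima TL05 (SlSl, the female parent) with T. urartu TMU06 (AA), whose F1 was doubled with colchicine, and its selfed generations S5, S6, S7 and S8 were profiled. TD, a wild T. turgidum ssp. dicoccoides, and TTR13, a domesticated T. turgidum ssp. durum, are natural tetraploids of genome BBAA and do not descend from these parents. Mix, the in vitro "hybrid", was parental RNA combined 1:1, and both parents, T. urartu and Ae. longissima, were measured as well. Leaves (the second one) came from 3-week-old seedlings and young inflorescences from plants at booting, and no special treatment was given. Each of the 18 groups (9 genotypes in 2 tissues) had 3 arrays, 54 in all. Every array of a plant line was 1 pool of plants, so the p-values measure the spread between pools. For Mix it was not given whether its 3 mixtures came from separate pools. AT2 is 1 line and each other genotype 1 accession.

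The log2 medians of the arrays were 4.69 to 4.87 for young inflorescence and 4.73 to 4.92 for leaf, and replicates correlated at 0.984 to 0.996 and 0.964 to 0.996 in the same order. The number of arrays limits the precision. The tissue labels were checked against marker genes. Of 18 leaf marker probe sets that passed the filter in either tissue, 16 were lower and 2 higher in young inflorescence than in leaf. Of all probe sets, 88.4% were called between the tissues. In leaf 17 leaf marker probe sets passed the filter and in young inflorescence 11. For those that passed through leaf only, the direction was fixed by the filter, so the count is a description. The log2 of the summed level over all 34 listed, with no filter, was 14.24 to 14.95 on the young inflorescence arrays and 16.71 to 16.86 on the leaf arrays. Of the 34, 20 were never above the array median in young inflorescence and 15 never in leaf; 28 of them read the plastid gene rbcL. The 22 inflorescence marker probe sets, histone and anther genes, summed to 14.96 to 16.04 in young inflorescence and 9.44 to 10.58 in leaf, and 2 of them were never above the median in young inflorescence and 8 in leaf.

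The array adds up the copies of a gene from both subgenomes. To separate them for Prx1, the study designed pyrosequencing primers on the transcript of the shared Prx1 probe set, which amplify a stretch holding a base that differs between the parental copies. They are printed because they show under which Prx1 probe set the study listed the assay. The shared and unique Prx1 probe sets are annotated with the same source sequence, so the primers do not set one apart from the other. The readout of that assay was not analysed here. All are 5′ to 3′ in lower case and no base is marked. The primers are 19, 18 and 15 bases long, in the order given, and the reverse primer carries biotin.
forward primer: atgtcgccgaccacgacta
reverse primer: cgtggcagcagcctacga
sequencing primer: tagggcgcggtagga

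Levels are given as log2 expression per probe set, as the authors deposited them. The level of one probe set cannot be set against that of another, since probes differ in brightness. A level under the array median was not told from background. Within a tissue, a probe set was tested if it exceeded the 65th percentile of the array on all 3 arrays of some genotype. Differences were tested with limma's moderated test and were called where the Benjamini-Yekutieli adjusted p over all probe sets tested fell under 0.05. By that filter 4 of the 5 member probe sets were tested in leaf and 3 in young inflorescence. The second Prx1 probe set passed in neither tissue: its levels of 2.19 to 3.59 lay under the array median on every one of the 54 arrays. The third Prx1 probe set was above the median on 27 of 27 leaf arrays (5.25 to 6.48) but on 5 of 27 young inflorescence arrays (3.96 to 4.94). The other 3 were above the median everywhere, except for the unique Prx1 probe set on 1 young inflorescence array of T. urartu.

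In leaf the group means of Trx-M lay close together. They spanned 0.31 log2 units, with 13.15 ± 0.05 in TD at the low end and 13.46 ± 0.06 in S5 at the high end (SD, n = 3). Its leaf readings were at the 99.8th to 99.9th percentile of their arrays, whose highest level was 14.51 or more, and whether so bright a probe set can still show a change in full was not tested. It was read at 13.43, 13.45 and 13.42 in T. urartu, against 13.41, 13.45 and 13.38 in Ae. longissima. The 2 parents overlapped. In the terms of the study Trx-M was a parental expression-conserved (PEC) gene in leaf, with a difference of 0.02 (95% interval -0.13 to 0.16, adjusted p = 1).

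**Figure D1:**
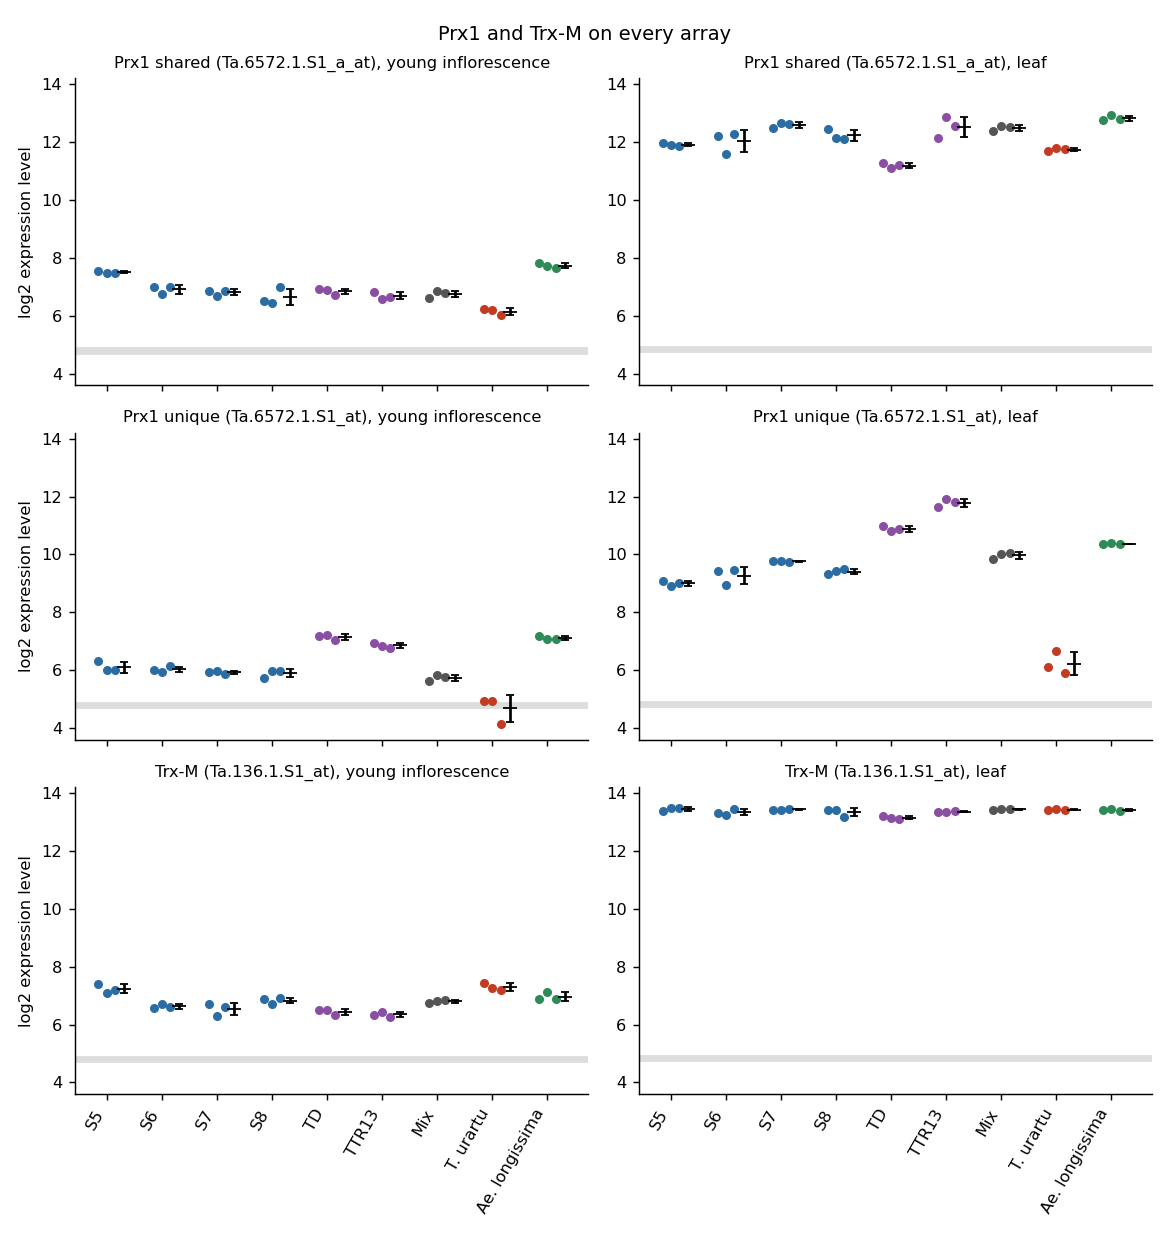
Levels of Trx-M and of the 2 brighter Prx1 probe sets on every array. The x axis gives the genotype and the y axis the log2 expression level, points are single arrays (3 per group), the black mark is the mean with its SD, and the grey band is the range of array medians of the tissue. The unique Prx1 probe set spreads most among genotypes in leaf, and Trx-M spreads least there.

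Prx1 differed between the parents, and the unique and shared probe sets differed in how much. In leaf the unique Prx1 probe set was read at 6.13, 6.66 and 5.89 in T. urartu, against 10.36, 10.38 and 10.37 in Ae. longissima. No T. urartu array came within 3 log2 units of Ae. longissima. The shared Prx1 probe set was read at 11.68, 11.79 and 11.76 in T. urartu, against 12.75, 12.92 and 12.78 in Ae. longissima. The groups were again apart, but by less: the difference was -1.08 ± 0.16 (SE, 2.11-fold lower in T. urartu, adjusted p = 2.64e-05), while that of the unique Prx1 probe set was 17.7-fold. By contrast, the third Prx1 probe set was read at 5.88, 5.66 and 5.70 in T. urartu and at 5.85, 6.01 and 5.82 in Ae. longissima, and these overlapped, with a difference of -0.15 ± 0.14 (adjusted p = 1). So 2 of the 4 member probe sets tested in leaf, both of Prx1, were parental expression-differential (PED), beside 46.5% of all probe sets.

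In young inflorescence the same 2 Prx1 probe sets were lower in T. urartu. The shared Prx1 probe set was read at 6.22, 6.19 and 6.02 in T. urartu, against 7.81, 7.73 and 7.65 in Ae. longissima, a difference of -1.59 ± 0.11 (SE, 3-fold lower, adjusted p = 9.38e-11). The unique Prx1 probe set was read at 4.95, 4.94 and 4.15 in T. urartu, against 7.19, 7.09 and 7.08 in Ae. longissima. The mean of T. urartu was 4.68, 5.42-fold below Ae. longissima, with 1 of its 3 arrays under the array median, so the size of this fold is uncertain. Trx-M was read at 7.44, 7.26 and 7.19 in T. urartu and at 6.90, 7.13 and 6.87 in Ae. longissima. All 3 T. urartu arrays were above all 3 of Ae. longissima, yet the difference of 0.33 ± 0.10 did not pass (adjusted p = 0.0834, and 0.0297 without replicate 2 of Ae. longissima). The share of all probe sets called between the parents was 50.9% there. Of the 11 leaf marker probe sets tested, 8 were lower and 1 higher in T. urartu than in Ae. longissima, beside the lower Prx1 readings. Of 16 inflorescence marker probe sets 11 were lower and 2 higher, and in leaf 5 of 17 leaf and 5 of 9 inflorescence marker probe sets were lower and 0 higher. The part of these markers was not tested.

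Whether a probe binds the RNA of both species equally was not tested. The difference between the parents was itself larger in leaf for the unique Prx1 probe set, by the interaction of tissue and parent, 1.70 ± 0.21 (SE, adjusted p = 5.4e-08), among 36.3% of all probe sets called for that interaction. Its size is uncertain, because T. urartu was near the array median in young inflorescence. For the shared Prx1 probe set, the third Prx1 probe set and Trx-M the interaction was -0.51 ± 0.19, -0.02 ± 0.23 and 0.32 ± 0.13 in that order, and none passed (adjusted p = 0.292, 1 and 0.394).

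Other genes of peroxide and glutathione metabolism were matched by symbol or synonym to a list of redox families. Redox genes named otherwise would be missed. The match gave 4: CAT1 (catalase), PER1 (in barley a peroxiredoxin with 1 reactive cysteine), GSTZ1 (a zeta-class glutathione transferase) and lgul (lactoylglutathione lyase, which clears methylglyoxal with glutathione). They are on 9 probe sets, of which 6 were tested in leaf and 2, both of lgul, in young inflorescence. PER1 did not pass the filter in either tissue. Between the parents in leaf 3 of the 6 were higher in T. urartu, 1 was lower and 2 did not pass, with a median of 0.54 against -0.09 over all probe sets. The 2 lgul probe sets went opposite ways, one at 8.15, where Ae. longissima lay under the array median, and the other at -3.25, and in young inflorescence they did so again. CAT1 was at 0.18 and did not pass (adjusted p = 0.329).

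**Figure D2:**
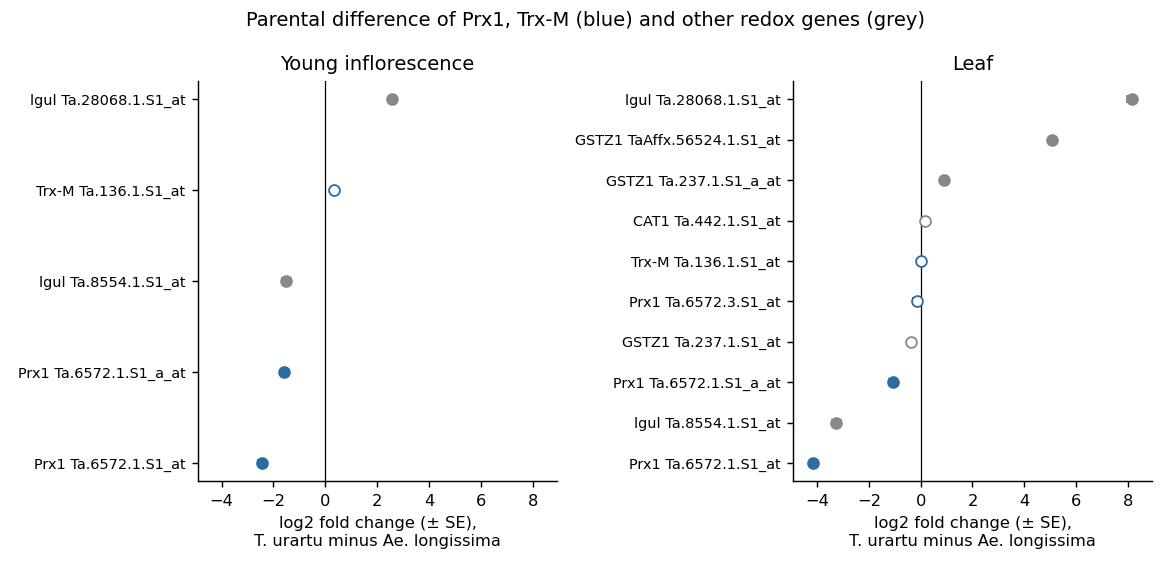
Difference between the parents, T. urartu minus Ae. longissima, for each probe set tested of Prx1 and Trx-M (blue) and of the other redox genes (grey). The x axis is the log2 fold change with its SE, filled points passed an adjusted p under 0.05 and open points did not. Trx-M lies near 0 in leaf, and the 2 called Prx1 probe sets lie to the left in both tissues.

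Against Mix, the measured stand-in for additive expression, Prx1 on its unique probe set was lower in leaf of AT2 in 3 of 4 generations. The arrays of Mix gave 9.83, 10.03 and 10.04. In S5 the level was 9.07, 8.92 and 9.00, which was 0.97 lower on the log2 scale (log2 fold change -0.97 ± 0.15 SE, adjusted p = 0.000227). In S6 it was 9.41, 8.93 and 9.47 (log2 fold change -0.70 ± 0.15, adjusted p = 0.0086). All arrays of these generations were below all of Mix. In S7 it was 9.77, 9.76 and 9.74, just under the lowest Mix array, and the difference of -0.21 did not pass (95% interval -0.50 to 0.08, adjusted p = 1). In S8 it was 9.31, 9.42 and 9.49, again below Mix (log2 fold change -0.56 ± 0.15, adjusted p = 0.035). The S6 call was lost without replicate 2 or 3 of Mix or replicate 2 of S6 (adjusted p up to 0.0889), and the S8 call without replicate 2 or 3 of Mix or any S8 array (up to 0.18).

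The 3 calls also rested on Mix as the control. Mix was 0.52 above the mean of the parents' linear levels for this probe set in leaf. Against that computed mid-parent value the differences of S5, S6 and S8 were -0.45, -0.18 and -0.04 in that order, and none passed. Against the mean of the parents' log2 levels, all 4 generations were higher, by 0.70, 0.97, 1.46 and 1.11 for S5 to S8.

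On the shared Prx1 probe set no generation differed from Mix in leaf by the threshold. Mix was read at 12.38, 12.56 and 12.53. S5, at 11.97, 11.89 and 11.87, lay below every Mix array and just missed it (log2 fold change -0.58 ± 0.16, adjusted p = 0.0502; it passed with arrays centred on their median, at -0.67, and quantile normalized, at -0.65, and without any 1 array of S6, replicate 1 of S8 or replicate 1 or 2 of TTR13). S6 was read at 12.21, 11.60 and 12.28, a spread wider than in any other leaf group of this probe set (SD 0.38), with -0.46 (adjusted p = 0.255). S7, at 12.49, 12.67 and 12.61, and S8, at 12.45, 12.13 and 12.11, overlapped Mix, with 0.10 and -0.26 (adjusted p = 1 each).

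Trx-M was not called in leaf of AT2. Its 12 arrays lay between 13.18 and 13.50, around the 13.40, 13.45 and 13.46 of Mix, and the differences of S5 to S8 were 0.02, -0.09, 0.01 and -0.10. The widest of their 95% intervals reached -0.25, on readings near the top of the arrays' range. For the third Prx1 probe set they were 0.11, 0.39, 0.30 and -0.18, none of which passed (adjusted p = 0.346 for S6 and 1 for the others). In all, the member calls against Mix in leaf were 1 of 4 probe sets in S5, 1 in S6, 0 in S7 and 1 in S8, beside 23.8%, 19.7%, 10.8% and 29.3% of all probe sets. In S7, 1 of the 4 had an unadjusted p under 0.05 in limma. Of the 6 other redox probe sets, 1 passed in S5, 2 in S6, 0 in S7 (3 at an unadjusted p under 0.05 in limma) and 3 in S8. The calls were GSTZ1, higher on 1 probe set in S5, S6 and S8 (0.53, 1.20 and 1.03) and on a different one in S6 and S8 (0.88 and 0.80), and CAT1, lower in S8 (-0.49, adjusted p = 9.97e-05).

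In young inflorescence S5 stood apart. There the shared Prx1 probe set was read at 7.55, 7.49 and 7.47 in S5, against 6.63, 6.86 and 6.77 in Mix, with no overlap (log2 fold change 0.75 ± 0.11 SE, 1.69-fold, adjusted p = 0.000127). Trx-M was read at 7.40, 7.11 and 7.21 in S5, against 6.75, 6.83 and 6.85 in Mix, also with no overlap (0.43 ± 0.10, adjusted p = 0.0225). The later generations lay near Mix on the shared Prx1 probe set, with differences of 0.15, 0.05 and -0.11 for S6, S7 and S8 (adjusted p = 1 each). For Trx-M they were -0.17, -0.26 and 0.02 (adjusted p = 1, 0.626 and 1). The unique Prx1 probe set was read at 6.33, 6.01 and 5.99 in S5, above the 5.62, 5.83 and 5.75 of Mix, but the difference of 0.37 did not pass (adjusted p = 0.449), nor did 0.30, 0.19 and 0.17 in S6 to S8. The member calls were 2 of 3 probe sets in S5 and 0 of 3 in S6, S7 and S8, beside 24%, 20.8%, 15.4% and 19.4% of all probe sets. At an unadjusted p under 0.05 in limma, 0, 1 and 0 of 3 passed in S6, S7 and S8.

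Both S5 calls depended on the control, and that of Trx-M on the scaling as well. The call of the shared Prx1 probe set held with median centring, with quantile normalization and in all 27 fits without 1 array. For Trx-M the call was lost with arrays centred on their median (0.35, adjusted p = 0.107), with quantile normalization (0.35), and without any Mix array or without replicate 1 or 3 of S5 (0.35 to 0.45). In young inflorescence Mix was below the linear mid-parent value by 0.39 for the shared Prx1 probe set, 0.63 for the unique Prx1 probe set and 0.33 for Trx-M. Against that value S5 was at 0.36 for the shared Prx1 probe set and 0.09 for Trx-M, neither of which passed, S6 and S7 were lower for Trx-M, at -0.51 and -0.60, and S8 was lower for the shared Prx1 probe set, at -0.50. Of the 11 leaf marker probe sets, 5 were higher in S5 than in Mix and 2 lower: PRK (phosphoribulokinase, an enzyme that chloroplast thioredoxins switch on) at 0.84, PsbO at 0.59, PsbP at 0.65 and 0.61 and petC at 0.63, with PsbO and PsbP parts of photosystem II and petC of the cytochrome b6f complex. The lower ones both read the plastid gene rbcL, at -1.69 and -1.35. The log2 of their summed level was 14.50 to 14.95 in S5 and 14.60 to 14.65 in Mix. The part of these markers in the higher Prx1 and Trx-M readings was not tested. In bulk tissue, fewer cells of a type and less RNA per cell cannot be told apart.

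**Figure D3:**
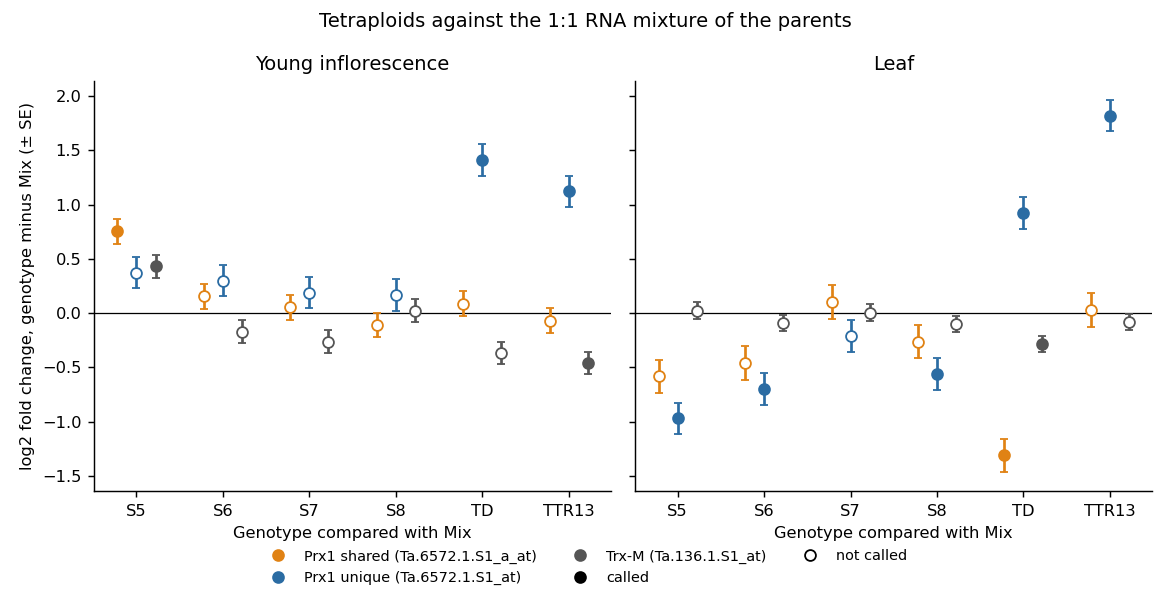
Difference of each tetraploid from Mix for Trx-M and the 2 brighter Prx1 probe sets. The x axis gives the genotype and the y axis the log2 fold change with its SE, filled points passed an adjusted p under 0.05 and open points did not. In leaf the unique Prx1 probe set is below Mix in S5, S6 and S8 and above it in TD and TTR13, and TD is the genotype in which the 2 Prx1 probe sets are called in opposite directions.

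Set beside each parent, AT2 had an intermediate reading of the unique Prx1 probe set. In leaf it was above T. urartu in S5, S6, S7 and S8 by 2.77, 3.04, 3.53 and 3.18 on the log2 scale (6.83-fold in S5 and 8.25-fold in S6). It was below Ae. longissima, with log2 differences of -1.37, -1.10, -0.61 and -0.96. All 8 were called, the weakest being S7 against Ae. longissima (adjusted p = 0.0139, and up to 0.0574 without replicate 2 or 3 of S7 or replicate 2 of Ae. longissima). In young inflorescence the order was the same, but the distance from T. urartu, which was near the array median, was smaller than in leaf. There S5 to S8 were above T. urartu by linear folds of 2.69, 2.55, 2.37 and 2.33. Against Ae. longissima the log2 differences were -1.01, -1.09, -1.20 and -1.22, and all 8 were called again. No generation was above the higher or below the lower parent on this probe set.

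The shared Prx1 probe set leaned to one parent or the other. In leaf S5, S6 and S8 were below Ae. longissima (-0.91, -0.79 and -0.59) and not called against T. urartu (0.17, 0.29 and 0.49), while S7 was above T. urartu (0.85, adjusted p = 0.00116) and not called against Ae. longissima (-0.23). The S8 call against Ae. longissima was lost without replicate 2 or 3 of S8 or of Ae. longissima (adjusted p up to 0.138), and with only the groups compared in the fit (0.0708), where the S6 call was lost too (0.144). In young inflorescence all 4 generations were above T. urartu (1.36, 0.76, 0.66 and 0.50), and S6, S7 and S8 were below Ae. longissima (-0.82, -0.93 and -1.08), while S5 was not called against it (-0.23, adjusted p = 0.903) but was below it with quantile normalization (-0.47, adjusted p = 0.0124). The S8 call against T. urartu was lost without replicate 3 of S8 (0.33, adjusted p = 0.0896) or of T. urartu (0.44, adjusted p = 0.0671), or with only the groups compared (0.309).

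Trx-M was not called against either parent in leaf. In young inflorescence S6, S7 and S8 were below T. urartu (-0.66, -0.75 and -0.47, adjusted p = 0.000136, 2.71e-05 and 0.00746), the last not so without replicate 2 of S8 or replicate 1 of T. urartu (adjusted p up to 0.0718) or with only the groups compared (0.0911). S7, at 6.72, 6.31 and 6.61, was below Ae. longissima too (-0.42, adjusted p = 0.0163), under both parents, and lost that call without its replicate 2 (-0.30, adjusted p = 0.21) or without replicate 2 of Ae. longissima (-0.34, adjusted p = 0.161), or with only the groups compared (0.273). S6 was below Ae. longissima with median centring or quantile normalization (-0.48 each, against -0.33 as deposited). S5 was called against neither parent. In leaf the third Prx1 probe set had 1 call against the parents, S8 below Ae. longissima (-0.57, adjusted p = 0.0139), which was lost without replicate 2 or 3 of S8 or replicate 2 of Ae. longissima (adjusted p up to 0.0882). With median centring S8 was below T. urartu too (-0.53, adjusted p = 0.0256).

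Counted by comparison, the member calls in leaf against T. urartu were 1, 1, 2 and 1 of 4 for S5 to S8, beside 37.9%, 37%, 29.3% and 42.9% of all probe sets. Against Ae. longissima they were 2, 2, 1 and 3 of 4, beside 46.2%, 43.7%, 37% and 49.5%. In young inflorescence they were 2, 3, 3 and 3 of 3 against T. urartu, beside 33.9%, 35.6%, 28.8% and 34.5%, and 1, 2, 3 and 2 of 3 against Ae. longissima, beside 48%, 45.1%, 39.8% and 44.3%.

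From one selfed generation to the next, leaf levels of neither gene passed the test on the values as deposited. With arrays centred on their median, S7 minus S6 passed on the shared Prx1 probe set (0.64, adjusted p = 0.0311) and the unique one (0.57, 0.0488), and S8 minus S7 on the third (-0.57, 0.0493). The largest step was that of the shared Prx1 probe set between S7 and S6, 0.56 (adjusted p = 0.0747; it passed without replicate 3 of S6, at 0.69, or without replicate 1 or 2 of TTR13). At an unadjusted p under 0.05 from limma 0, 2, 3 and 1 of the 4 passed for S6 minus S5, S7 minus S6, S8 minus S7 and S8 minus S5. Beside the 0 member calls stood 16.3% of all probe sets for S6 minus S5, 20% for S7 minus S6, 10.3% for S8 minus S7 and 11.3% for S8 minus S5. In young inflorescence the step from S5 to S6 was called for Trx-M and, of the Prx1 probe sets tested, for the shared one only. The unique Prx1 probe set was not called, with means of 6.11 in S5 and 6.03 in S6. Its difference was -0.13 to 0.03 with 1 array left out. Trx-M was read at 6.57, 6.73 and 6.61 in S6, against the S5 values above, and differed by -0.60 ± 0.10 (adjusted p = 0.00298). The shared Prx1 probe set was read at 6.98, 6.75 and 6.99 in S6 and differed by -0.60 ± 0.11 (adjusted p = 0.00677, and -0.52 with 0.0807 without replicate 2 of S6). With S8 at 6.50, 6.46 and 6.98, S8 minus S5 was -0.86 (adjusted p = 9.13e-05) for the shared Prx1 probe set and -0.41 (adjusted p = 0.0971) for Trx-M. With only the groups compared in the fit, none of these calls held (adjusted p = 0.0737 for Trx-M in S6 minus S5, and 0.0549 and 0.104 for the shared Prx1 probe set in S6 minus S5 and S8 minus S5). The calls were 2 of 3 for S6 minus S5, 0 of 3 for S7 minus S6 and for S8 minus S7, and 1 of 3 for S8 minus S5, beside 6.18%, 2.76%, 2.69% and 6.67% of all probe sets. For the comparisons without a call, 0 (S7 minus S6) and 1 (S8 minus S7) had an unadjusted p under 0.05 in limma. Of the 11 leaf marker probe sets, 4 were lower and 2 higher in S6 than in S5, and 3 were lower and 1 higher in S8 than in S5, and their part was not tested.

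The natural tetraploids had the highest leaf readings of the unique Prx1 probe set. TTR13 gave 11.64, 11.90 and 11.81 and TD gave 10.99, 10.80 and 10.87, all above every Mix array and every parental array. Against Mix the difference was 1.82 ± 0.15 in TTR13 (SE, 3.53-fold, adjusted p = 3.07e-09) and 0.92 ± 0.15 in TD (1.89-fold, adjusted p = 0.000148). TTR13 was above TD by 0.90 (adjusted p = 0.000386). Of 17 leaf marker probe sets in leaf, 5 were higher and 0 lower in TTR13 than in Mix and 3 were higher and 0 lower in TTR13 than in TD, and their part was not tested. In young inflorescence the order of the 2 was not resolved: TTR13 gave 6.96, 6.83 and 6.78 and TD gave 7.17, 7.22 and 7.04, against 5.62, 5.83 and 5.75 in Mix. Both were above Mix, by 1.12 (adjusted p = 4.07e-06) in TTR13 and 1.41 (adjusted p = 1.28e-07) in TD, and TTR13 minus TD was -0.29 (adjusted p = 1).

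The shared Prx1 probe set read otherwise. In leaf of TD it was read at 11.26, 11.09 and 11.19, the lowest of all genotypes and below every Mix array, with a log2 fold change of -1.31 ± 0.16 against Mix (2.48-fold lower, adjusted p = 2.25e-06). In TTR13 it was 12.15, 12.85 and 12.56, spread around Mix, with 0.03 (95% interval -0.27 to 0.34, adjusted p = 1). TTR13 minus TD was thus 1.34 (adjusted p = 3.74e-06). In young inflorescence neither differed from Mix by the threshold, at -0.07 in TTR13 (95% interval -0.29 to 0.15) and 0.09 in TD (-0.13 to 0.31). The 2 probe sets correlated over the 9 genotype means at 0.288 in leaf and 0.62 in young inflorescence, a description over groups that share the same arrays for both. The third Prx1 probe set was read at 6.29, 6.48 and 6.02 in TTR13 and 6.46, 6.30 and 6.30 in TD, against 5.53, 5.53 and 5.45 in Mix, and was higher in leaf of both, by 0.76 (adjusted p = 0.000914) and 0.86 (adjusted p = 0.000244). Which transcripts each probe set reads in BBAA plants was not tested.

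Trx-M was called below Mix in leaf of TD and in young inflorescence of TTR13. In leaf of TD it was 13.20, 13.13 and 13.12, below every array of Mix, and the difference of -0.29 ± 0.08 passed (adjusted p = 0.031) but was lost on leaving out any 1 of the 6 arrays compared (-0.27 to -0.31, adjusted p = 0.0526 to 0.15). TTR13, at 13.33, 13.35 and 13.38, differed by -0.08 (adjusted p = 1). In young inflorescence TTR13 gave 6.35, 6.44 and 6.26 and TD 6.49, 6.51 and 6.32, against 6.75, 6.83 and 6.85 in Mix, with no overlap. The difference was -0.46 ± 0.10 in TTR13 (adjusted p = 0.0063, and 0.0515 without its replicate 3) and -0.37 ± 0.10 in TD (adjusted p = 0.0557). Of the 11 leaf marker probe sets tested in young inflorescence, 5 were lower and 1 higher in TTR13 than in Mix, and 3 lower in TD, and their part was not tested.

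In leaf the member calls were 4 of 4 for TD minus Mix, 2 of 4 for TTR13 minus Mix and 2 of 4 for TTR13 minus TD, beside 36.6%, 38.4% and 21.9% of all probe sets. In young inflorescence they were 1, 2 and 0 of 3, beside 36.9%, 46.7% and 33.3%, with 0 of 3 at an unadjusted p under 0.05 in limma for TTR13 minus TD. Of the 6 other redox probe sets in leaf, 4 were higher and 1 lower in TD and 4 were higher and 0 lower in TTR13 than in Mix, with medians of 1.25 and 1.80 against -0.10 and -0.13 over all probe sets. The 4 were the 3 of GSTZ1 and the lgul probe set that was lower in T. urartu than in Ae. longissima, at 2.22 in TTR13 and 0.99 in TD. CAT1 was at -0.04 and 0.03. The same lgul probe set was also higher in young inflorescence of both, at 0.86 and 0.99.

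Taken over the generations, the mean of S5 to S8 was below the mean of TD and TTR13 for the unique Prx1 probe set, by -1.98 ± 0.09 in leaf (adjusted p = 3.4e-14) and -1.01 ± 0.09 in young inflorescence (adjusted p = 3.69e-09). In leaf of AT2 the third Prx1 probe set was lower as well, at -0.65 (adjusted p = 5.69e-06). There the shared Prx1 probe set was higher, at 0.34 (adjusted p = 0.034), a call that was lost with the replicate number as a block (adjusted p = 0.0528), with median centring (0.0974), with no filter (0.0592), with only the groups compared (0.125), without any TD array (up to 0.121), without replicate 1 or 3 of TTR13 (up to 0.219), and without replicate 1 of S5, 1 or 3 of S6, 2 or 3 of S7 or 1 of S8 (up to 0.0641), and was at 0.20 in young inflorescence (adjusted p = 0.12). Trx-M was higher in young inflorescence of AT2, by 0.42 ± 0.06 (adjusted p = 3.71e-05), with 0.14 in leaf (adjusted p = 0.095; called with quantile normalization, at 0.19). These were 3 of 4 member calls in leaf and 2 of 3 in young inflorescence, beside 56% and 59.6% of all probe sets. Of the leaf marker probe sets, 6 of 17 were lower and 1 higher in leaf of AT2, and 4 of 11 were higher in its young inflorescence, with their part not tested.

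Between the tissues, Trx-M and the shared and unique Prx1 probe sets were lower in young inflorescence than in leaf in each genotype. Over the 8 genotypes other than Mix the mean difference was -6.58 ± 0.03 for Trx-M (SE, 95.6-fold lower), -5.22 ± 0.05 for the shared Prx1 probe set (37.3-fold), -3.37 ± 0.05 for the unique Prx1 probe set (10.3-fold) and -1.34 ± 0.06 for the third Prx1 probe set (2.53-fold, with its young inflorescence levels mostly under the array median). Trx-M and the shared and unique Prx1 probe sets were called, beside 88.4% of all probe sets. The third Prx1 probe set entered only through leaf, so its direction was fixed by the filter and its values are a description. In S8 its difference was -0.55, and -0.58 to -0.47 with 1 array left out. A shared normalization of the tissues is not given in the sources used here, and these values assume it.

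The tissue difference of Trx-M lay between -6.13 in T. urartu and -7.01 in TTR13, with the leaf side near the top of the arrays' range in each. That of the shared Prx1 probe set lay between -4.34 in TD and -5.84 in TTR13. The unique Prx1 probe set varied most, with -1.54 in T. urartu, where leaf was also low, and -4.93 in TTR13. The 2 lgul probe sets, the only ones of the redox list that passed the filter in young inflorescence, were lower there as well. They were at -5.20 and -3.39, against a median of 0.10 over all probe sets. The summed leaf markers were also lower in young inflorescence, as given for the check of the labels, and their part in the Trx-M and Prx1 differences was not tested.

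**Figure D4:**
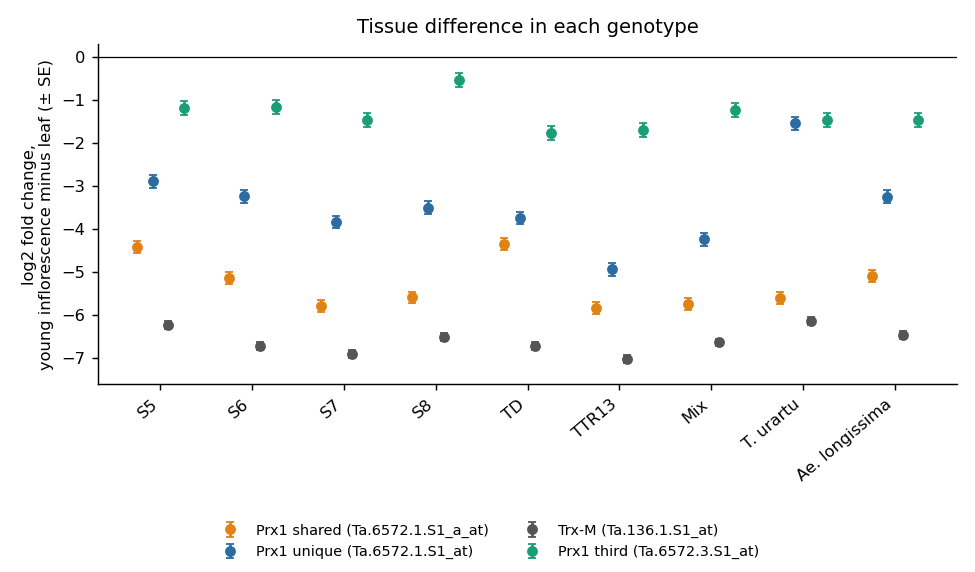
Difference between the tissues in each genotype for the 4 member probe sets tested in either tissue. The x axis gives the genotype and the y axis the log2 fold change of young inflorescence minus leaf with its SE. All points are below 0, Trx-M lies lowest in every genotype, and the unique Prx1 probe set ranges widest, with T. urartu at -1.54.

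Whether AT2 departed from Mix differently in the tissues was tested with the mean of S5 to S8. The interaction of tissue and the difference between AT2 and Mix was 0.87 ± 0.17 for the unique Prx1 probe set (SE, adjusted p = 0.000783). The 4 differences from Mix behind it were between 0.17 and 0.37 in young inflorescence and between -0.97 and -0.21 in leaf. The interaction was 0.51 ± 0.15 for the shared Prx1 probe set (adjusted p = 0.0925), 0.15 ± 0.18 for the third Prx1 probe set and 0.05 ± 0.10 for Trx-M (adjusted p = 1 each). Of all probe sets, 18.4% were called for it. The call rested on Mix, which for the unique Prx1 probe set was 0.52 above the linear mid-parent value in leaf and 0.63 below it in young inflorescence. Against that value the interaction turned to -0.29 and did not pass (adjusted p = 1), and against the mean of the parents' log2 levels it was -0.97 (adjusted p = 4.67e-07).

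The named genes whose 9 genotype means ran most like those of a member were looked up in each tissue, among 68 genes in leaf and 62 in young inflorescence, by Pearson correlation and with no test. In leaf Trx-M ran most like Pgk-1 (phosphoglycerate kinase), at 0.828, then Tubb5, a tubulin (0.71), and Glc1 (0.709). Pgk-1 was also first for the shared Prx1 probe set, at 0.901, before SAHH (0.753) and FBP, fructose-1,6-bisphosphatase (0.733). Trx-M and the shared Prx1 probe set therefore had the same first gene, and their own means correlated at 0.624. With the unique and the third Prx1 probe set Trx-M correlated at -0.417 and -0.589 in leaf. In young inflorescence Trx-M correlated at 0.125 with the shared and -0.574 with the unique Prx1 probe set. The unique Prx1 probe set in leaf ran most like lgul, on that same probe set, at 0.96, then rbcl (0.735) and TaTPC1 (0.702). The lgul probe set was likewise high in TTR13 (10.82) and TD (9.59) and low in T. urartu (5.77). The third Prx1 probe set, also in leaf, came nearest to the histone gene wcH2A-3 (0.927), then la-17 (0.885) and TaTPC1 (0.841).

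In young inflorescence the shared Prx1 probe set ran most like PRK, at 0.959, then the histone gene wcH2B-6 (0.877) and PsbP (0.824). The unique Prx1 probe set ran like Tubb4, also a tubulin (0.923), the same lgul probe set (0.899) and wcH2B-8 (0.899). Trx-M ran like FBP (0.888), GAPN (0.867) and LTP3 (0.84). Each correlation is over 9 means from the same 27 arrays.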

How the data were processed

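The authors normalized the arrays with RMA, and the deposited values are log2 expression levels per probe set. The labels name limma and MAS5 as tools, without versions. The values were used as deposited, and 0 columns had no matching sample. Genotypes were read from the sample titles with the paper's methods, because the genotype label gives AT2 for every array. Probe sets were named from the platform's probe-to-gene table, which lists 1273 probe sets, 1272 of them with a gene ID found in the RefSeq gene table.

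With limma 3.58.1 in R 4.3.3 (data.table, version 1.17.8), 1 mean per genotype was fitted to the 27 arrays of a tissue, and both tissues (54 arrays) for the tissue differences. P-values were adjusted by Benjamini-Yekutieli over 25940 probe sets in leaf, 25323 in young inflorescence and 29906 in either. The filter stands in for the authors' present calls by MAS5, since probe-level data were not used here. The fit was tested on simulated data. Figures were drawn with matplotlib 3.10.9 (Python 3.11.15). Exactly equal values were shared by 0.0212% of probe sets between leaf arrays, 0.0232% between young inflorescence arrays and 0.014% between tissues.

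Named were every probe set of Prx1 and Trx-M, the redox and tissue marker lists, and the 3 named genes most like each member. The members and lists were chosen with earlier results of these data known. Same replicate numbers did not pair the samples: in 0 of 16 comparisons was every same-numbered correlation over 0.1 (range -0.13 to 0.234). Alternatives were another adjustment, filter, scaling, control and set of arrays. The mid-parent control for the interaction was added after the data were seen.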

Additional observations from a re-analysis of the deposited data

Results flagged for a closer look

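Prx1 on its unique probe set differed between the tissues in 2 comparisons, by a test of the interaction. The parental difference, T. urartu minus Ae. longissima, was -2.44 in young inflorescence and -4.14 in leaf, an interaction of 1.70 (limma, adjusted p = 5.4e-08), whose size is uncertain because T. urartu was near the array median in young inflorescence. The mean of S5 to S8 minus Mix gave an interaction of 0.87 (adjusted p = 0.000783). No leaving out of 1 array changed either call, but the interaction with Mix depended on that control: against the linear mid-parent value it was -0.29 (adjusted p = 1) and against the log2 one -0.97 (adjusted p = 4.67e-07), and Mix was 0.63 below the linear value in young inflorescence and 0.52 above it in leaf.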

How the results depend on the processing

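Of 195 results on the members, 150 kept their call under every alternative other than leaving out an array. With Benjamini-Hochberg adjustment 12 other comparisons (against a parent, between generations and between or with the natural tetraploids) passed in addition, and, among those between the parents, against Mix and of interactions, these 9: for the shared Prx1 probe set the interactions of tissue with AT2 minus Mix (0.51, 0.45 to 0.57 with 1 array left out) and with parent (-0.51), leaf S5 (-0.58) and S6 (-0.46) minus Mix; young inflorescence S5 minus Mix on the unique Prx1 probe set (0.37, 0.26 to 0.43 with 1 array left out); leaf S6 minus Mix on the third Prx1 probe set (0.39); and for Trx-M the interaction with parent (0.32), the parental difference (0.33, 0.26 to 0.42) and TD minus Mix (-0.37, -0.40 to -0.31) in young inflorescence.

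Against Mix in leaf, S5 on the shared Prx1 probe set (-0.58) passed with the 75th percentile filter, the filter over 7 genotypes and only the groups compared, at -0.67 with median centring, at -0.65 with quantile normalization, and in 6 of 27 fits without 1 array, all of S6, S8 or TTR13 (-0.64 to -0.55 over the 27, the ends not passing). On the unique Prx1 probe set, S6 was lost with only the groups compared (-0.70, adjusted p = 0.216; -0.79 to -0.53 with 1 array left out). S8 (-0.56) was lost with no filter and with the replicate block (adjusted p = 0.0553; -0.63 to -0.51 with 1 array left out). The replicate block also lost the mean of S5 to S8 minus that of TD and TTR13 on the shared Prx1 probe set in leaf (0.34, adjusted p = 0.0528). Trx-M in TD (-0.29) was lost with no filter and with only the groups compared (-0.31 to -0.27 with 1 array left out). In young inflorescence, S5 for Trx-M (0.43) was lost with no filter, with only the groups compared, with median centring (0.35) and with quantile normalization (0.35), and ranged from 0.35 to 0.50 with 1 array left out. TD for Trx-M passed with the 75th percentile filter (-0.37), median centring (-0.38) and quantile normalization (-0.38), and TTR13 was at -0.50 to -0.42 with 1 array left out.

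With the linear mid-parent value in place of Mix, S5, S6 and S8 on the unique Prx1 probe set in leaf were not called (-0.45, -0.18 and -0.0434). In young inflorescence S5 was not called on the shared Prx1 probe set (0.36) or for Trx-M (0.0935), while S8 on the shared Prx1 probe set (-0.50) and S6 and S7 for Trx-M (-0.51 and -0.60) were. With the log2 mid-parent value, the unique Prx1 probe set in leaf turned to 0.70, 0.97, 1.46 and 1.11 for S5 to S8. The third Prx1 probe set passed in S8 (-0.50), and in young inflorescence Trx-M was at 0.11 in S5, not called, and at -0.50 in S6 and -0.59 in S7, both called. The interaction of tissue with AT2 minus Mix, set against the mid-parent values after the data were seen, turned on the unique Prx1 probe set to -0.286 (linear, not called) and -0.969 (log2, called), and for Trx-M to -0.292 (log2, called). The log2 value is a geometric mean, which lies under the arithmetic one where parents differ. Other causes were not tested.

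The count called over all probe sets moved by over 1.5 times in 19 of 45 comparisons with Benjamini-Hochberg adjustment and in 1 of 45 with no filter. With only the groups compared it moved in 17 comparisons and not in 25. With the log2 mid-parent value it moved in all 9 comparisons run. Median centring shifted the median of all probe sets by up to 0.21 (young inflorescence minus leaf in TTR13, -0.206). Signal near the array median limits the third Prx1 probe set and the T. urartu readings of the unique Prx1 probe set in young inflorescence.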
